A study of Mus musculus with 9 samples.

Results

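Microglia are the resident macrophages of the brain, and the genes described here are 39 mouse symbols that mark microglia and macrophages or act in their phagocytic work. Of the 39 symbols, 38 had a row among the 23360 genes listed in every library, and those 38 are the members. The symbol Spi1, the transcription factor PU.1 that specifies the myeloid lineage, was dropped because the tables list that gene under its older symbol, Sfpi1. A total of 37 members passed the filter for testing, which asked that 3 or more libraries reach an FPKM of 1. Siglech, a sialic acid-binding lectin of microglia, did not pass it.

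RNA was measured in 9 libraries of ribosome-depleted total RNA, 3 each from A1G tumours, Ptch1 tumours and cerebellum. A1G tumours were primary medulloblastomas of the Sonic Hedgehog group from mixed-strain mice of genotype Math1-cre;A1G;Ptch1+/-, in which Math1-cre expresses Cre recombinase in granule neuron progenitors. The design text describes tumours driven by ATOH1, the granule progenitor factor, together with Hedgehog signalling, and the labels do not spell out the A1G allele. Ptch1 tumours were primary medulloblastomas from mixed-strain mice that carried the Ptch1+/- mutation alone, so both tumour kinds share it. Cerebellum came from wild-type adult C57BL/6 mice, so strain, genotype and tissue cannot be told apart in comparisons with it. Any difference in age cannot be told apart from these either. The labels give no ages for the tumour animals and do not say whether the replicates were separate animals, so p-values measure only the spread between these libraries.

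Resting microglia survey the tissue with receptors for nucleotides and fractalkine, and they depend on signals through the receptor Csf1r, which binds the ligands Csf1 and Il34. When microglia or incoming macrophages engulf material they are known to raise lysosomal enzymes, the complement protein C1q, and genes of the damage-associated state that the receptor Trem2 and its adaptor Tyrobp promote. Border macrophages of the meninges and vessels carry the mannose receptor Mrc1 and the scavenger receptor Cd163. Levels below are counts-per-million (CPM) scaled over all 9 libraries. Each log2 fold change is given with its standard error (SE) and a p-value of the quasi-likelihood test in edgeR, adjusted after Benjamini and Hochberg over the 14337 tested genes and judged at 0.05.

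The libraries held 2350941 to 9290237 fragments, and replicates of a group had Spearman correlations of 0.937 to 0.970 across genes. In A1G replicate 2 the 9 markers of dividing tumour cells summed to 2435 CPM, against 4225 and 5792 CPM in the other A1G tumours and 5451 to 6416 CPM in the Ptch1 tumours. Ptch1 replicate 3 was the lowest of the 6 tumour libraries for 19 of the 37 tested members, and it was the lowest for 16.3% of all tested genes. Without that library 20 members were called higher in tumours than in cerebellum, and without A1G replicate 2 also 20, against 18 with all libraries. In bulk RNA, a change in the number of cells of a type and a change in RNA per cell cannot be told apart.

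Promoters of 6 members are printed as examples. The complement genes C1qb and C1qc, the lysozyme gene Lyz2, the damage-associated gene Gpnmb and the protease gene Ctsd were higher in tumours. The resting receptor gene P2ry12 did not pass as higher. The printed stretch is the 250 bases before the gene's start in RefSeq on GRCm38.p6, read 5′ to 3′ on the gene's strand. Gene starts in the GENCODE annotation of mm10 differ from these, and by them the stretches of C1qc, Lyz2 and Ctsd lie partly inside the gene. Capitals mark 2 motifs searched on both strands: AGGAAGT (reverse complement ACTTCCT), a core that PU.1 binds, and CACGTG, an E-box core read by the lysosomal regulator Tfeb among other factors. No printed promoter holds bases shared by both motifs. They are C1qb at chr4:136886201-136886450 on the minus strand, C1qc at chr4:136892915-136893164 on the minus strand, Lyz2 at chr10:117282273-117282522 on the minus strand, Gpnmb at chr6:49036268-49036517 on the plus strand, Ctsd at chr7:142387828-142388077 on the minus strand and P2ry12 at chr3:59262986-59263235 on the minus strand.
C1qb: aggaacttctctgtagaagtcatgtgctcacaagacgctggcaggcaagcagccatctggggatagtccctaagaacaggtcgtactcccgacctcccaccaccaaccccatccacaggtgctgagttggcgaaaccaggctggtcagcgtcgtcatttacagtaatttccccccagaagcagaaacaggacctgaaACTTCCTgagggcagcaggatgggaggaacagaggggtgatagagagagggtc
C1qc: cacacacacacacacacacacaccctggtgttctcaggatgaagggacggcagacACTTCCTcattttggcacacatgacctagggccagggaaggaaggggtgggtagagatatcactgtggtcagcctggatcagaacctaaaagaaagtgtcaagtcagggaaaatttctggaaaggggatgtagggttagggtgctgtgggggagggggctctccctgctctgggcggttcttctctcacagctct
Lyz2: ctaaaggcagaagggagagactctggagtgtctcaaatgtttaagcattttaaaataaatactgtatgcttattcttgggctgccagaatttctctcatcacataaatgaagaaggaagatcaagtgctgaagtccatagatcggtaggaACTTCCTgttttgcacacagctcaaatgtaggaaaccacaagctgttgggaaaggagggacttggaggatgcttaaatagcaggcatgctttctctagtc
Gpnmb: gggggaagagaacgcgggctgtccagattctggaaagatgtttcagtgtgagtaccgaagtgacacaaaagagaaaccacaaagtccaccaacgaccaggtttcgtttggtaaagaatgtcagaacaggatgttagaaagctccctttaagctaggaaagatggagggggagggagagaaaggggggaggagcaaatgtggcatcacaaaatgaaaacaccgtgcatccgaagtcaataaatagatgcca
Ctsd: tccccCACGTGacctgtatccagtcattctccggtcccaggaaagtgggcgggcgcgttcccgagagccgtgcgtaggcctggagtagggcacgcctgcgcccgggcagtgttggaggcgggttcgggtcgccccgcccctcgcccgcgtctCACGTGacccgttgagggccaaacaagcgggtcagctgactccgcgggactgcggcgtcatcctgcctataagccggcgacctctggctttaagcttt
P2ry12: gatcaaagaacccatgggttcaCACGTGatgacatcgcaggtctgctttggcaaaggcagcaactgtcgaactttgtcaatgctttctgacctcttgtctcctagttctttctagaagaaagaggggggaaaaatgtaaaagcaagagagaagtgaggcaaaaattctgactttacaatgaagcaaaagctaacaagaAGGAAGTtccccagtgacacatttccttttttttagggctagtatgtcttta

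The PU.1 core begins 53 bases before the start in C1qb, 195 in C1qc, 100 in Lyz2 and 52 in P2ry12. Ctsd holds 2 E-boxes, 245 and 98 bases before its start, P2ry12 holds 1 at 228 bases, and Gpnmb holds neither motif. By the GENCODE start, the Ctsd E-box at 98 bases lies inside the gene and the one at 245 bases before it. RefSeq promoters of 300 bases (250 before to 50 after the start) were matched for 29 of the 38 members. The PU.1 core lay in promoters of 11 of these 29 genes (37.9%), against 10.7% of 27025 genes. It was found for 4 of 15 members that were higher in tumours (C1qb, C1qc, Ctss and Lyz2) and for 7 of 13 tested members that were not (Cd53, Fcgr1, Mrc1, P2ry12, Ptprc, Sall1 and Spp1). The E-box was found for Ctsd, P2ry12 and Siglech, 10.3% of the 29, against 8.09% of all genes. A match describes the letters in the window and is not evidence of binding.

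In tumours against cerebellum all 3 C1q genes, 5 of 6 phagocytic genes and 2 of 4 damage-associated genes were higher. Among the tested resting microglia members 0 of 5 were called higher. With 20.7% of all tested genes called higher, 0 among only 5 genes differs little from that share. Of 15 further tested genes typical of resting microglia 6 were higher, so the resting count depends on which genes are listed. Of the 37 tested members, 18 were higher in tumours and 1, Csf1, was lower. Over all tested genes 20.7% were higher and 21.5% lower, and these shares stand beside every count of called genes in this comparison. The median log2 change was 1.39 over the members and 0.01 over all tested genes. All 6 tumours were above all 3 cerebella for 18 members and below them for 1, Ctsb, against 18.5% and 19.7% of all tested genes. Set against cerebellum on their own, A1G tumours had 19 members higher and 0 lower (16.3% and 16.1% of all tested genes); no member was lower at an unadjusted p under 0.05 either, by DESeq2, or by limma on the authors' FPKM, which were scaled separately for tumours and cerebellum. Ptch1 tumours had 16 higher and 2 lower (20.2% and 19.7% of all tested genes). These comparisons share the 3 cerebellum libraries.

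**Figure D1:**
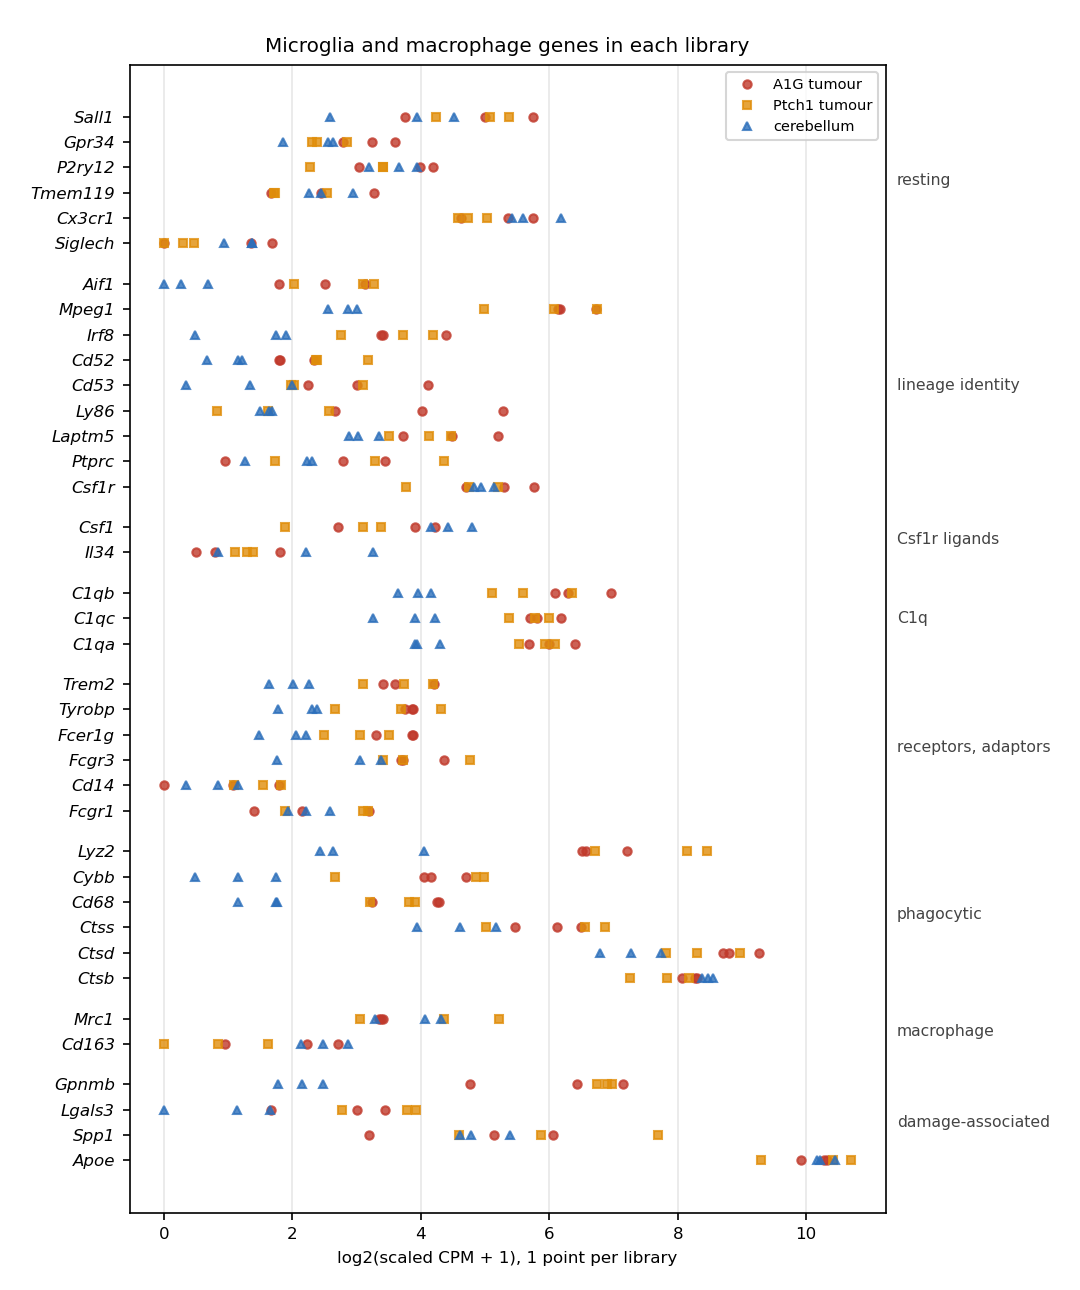
Level of each of the 38 members in each library, as log2(scaled CPM + 1), grouped by role. Red circles are A1G tumours, orange squares Ptch1 tumours and blue triangles cerebellum; the C1q genes, Mpeg1, Lyz2 and Gpnmb have all 6 tumour points to the right of cerebellum, and the resting genes have overlapping points.

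None of the 5 tested resting genes passed as higher in tumours, and their log2 changes ran from -0.74 to 1.16 with a median of -0.16. Missing the threshold does not show that a gene was unchanged. At an unadjusted p under 0.05 edgeR had Sall1 higher and Cx3cr1 lower, and DESeq2, and limma on the separately scaled FPKM, called none of the 5 higher. Cx3cr1, the fractalkine receptor, stood at 39.8, 23.7 and 52.6 CPM in the A1G tumours, 25.6, 22.9 and 31.8 in the Ptch1 tumours and 47.3, 42.0 and 71.3 in cerebellum. Every Ptch1 tumour was below every cerebellum, and the A1G tumours overlapped with cerebellum. Such a separation is common: 3874 of the 14337 tested genes were lower in Ptch1 tumours without overlap. The log2 change was -0.74 (SE 0.29, adjusted p = 0.0566) in all tumours, which did not pass the test; without A1G replicate 3 it did (adjusted p = 0.0327). In Ptch1 tumours alone Cx3cr1 had a log2 change of -1.01 (SE 0.34, adjusted p = 0.0345), past the threshold, and in A1G tumours the change was -0.47 (SE 0.34, adjusted p = 0.321). The difference between the tumour kinds was 0.53 (SE 0.35, adjusted p = 0.608). Without cerebellum replicate 3 no member was called lower in Ptch1 tumours.

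P2ry12, the ADP receptor that guides microglial processes, had 17.3, 7.17 and 14.8 CPM in the A1G tumours, 9.62, 9.66 and 3.83 in the Ptch1 tumours and 8.14, 14.3 and 11.6 in cerebellum. Tmem119, a membrane protein used as a marker of resident microglia, had 4.42, 2.18 and 8.64 CPM in the A1G tumours, 2.29, 4.83 and 2.30 in the Ptch1 tumours and 4.46, 6.69 and 3.79 in cerebellum. Tumours and cerebellum overlapped in both genes, with log2 changes of -0.16 (SE 0.42, adjusted p = 0.784) for P2ry12 and -0.30 (SE 0.54, adjusted p = 0.689) for Tmem119. Gpr34, a receptor for lysophosphatidylserine, changed by 0.58 (SE 0.45, adjusted p = 0.324). All 3 A1G tumours were above cerebellum in Gpr34, as for 3230 of the 14337 tested genes. Sall1, a transcription factor that keeps microglial identity and also acts in neural progenitors, had the highest change among the resting genes at 1.16 (SE 0.52, adjusted p = 0.0898), with 12.5 to 52.4 CPM in the A1G tumours, 17.9 to 40.3 in the Ptch1 tumours and 4.99 to 22.0 in cerebellum. Sall1 passed as higher without A1G replicate 1 (adjusted p = 0.0377) and with no filter (0.0360). Siglech was at 2.21, 1.56 and 0 CPM in the A1G tumours, 0, 0.225 and 0.383 in the Ptch1 tumours and 1.58, 0.912 and 1.60 in cerebellum, at 0 to 8 fragments in each library. P2ry12 lies inside Med12l and Gpr34 inside Cask, both on the opposite strand. In the GENCODE annotation of mm10 Cx3cr1 extends over Gorasp1, Csrnp1 and Xirp1 on its own strand and Wdr48 and Ttc21a on the other. The sources used here do not say whether counting used strand or how it assigned reads of overlapping genes.

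Of 18 further genes typical of resting microglia, 15 were tested, 6 were higher in tumours and 0 lower, with a median log2 change of 0.67. Fcrls, Rnase4 and Tgfbr1 were among those that were higher, and Tgfbr1 and Rnase4 are used by many other cells too. Tgfbr1, a receptor subunit for TGF-beta, had 88.8, 73.9 and 77.3 CPM in the A1G tumours, 64.3, 51.3 and 55.9 in the Ptch1 tumours and 20.2, 18.5 and 13.8 in cerebellum. Every tumour was above every cerebellum, a log2 rise of 1.95 (SE 0.25, adjusted p = 5.64e-05).

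Among the 9 members that mark the myeloid or leukocyte lineage, 5 were higher in tumours: Mpeg1, Aif1, Irf8, Cd52 and Laptm5. Mpeg1, a pore-forming protein that macrophages use against engulfed bacteria, was at 71.1, 105 and 69.1 CPM in the A1G tumours, 66.6, 106 and 30.6 in the Ptch1 tumours and 6.30, 4.87 and 6.99 in cerebellum. Every tumour was above every cerebellum, and the log2 rise was 3.61 (SE 0.42, adjusted p = 3.14e-05; two-sided exact permutation p = 0.0238, which is the lowest possible with 6 against 3 libraries). Irf8, a transcription factor of the macrophage lineage, was at 19.9, 9.67 and 9.46 CPM in the A1G tumours, 17.2, 12.1 and 5.75 in the Ptch1 tumours and 2.36, 2.74 and 0.399 in cerebellum, a log2 rise of 2.79 (SE 0.63, adjusted p = 0.00361). Aif1, the cytoskeletal protein known as the microglial marker Iba1, rose by 4.34 (SE 0.87, adjusted p = 0.00154). There were only 155 Aif1 fragments in the 6 tumour libraries and 3 in the 3 cerebellum libraries, a depth-scaled ratio of 25.8 with an exact 95% interval of 8.67 to 127 that covers counting error only. Without cerebellum replicate 2 the Aif1 change was 5.30.

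Cd52, a small surface protein of leukocytes, rose by 1.96 (SE 0.60, adjusted p = 0.0196), and Laptm5, a lysosomal membrane protein of blood cells, by 1.34 (SE 0.41, adjusted p = 0.0191). Both calls depend on the cerebellum libraries: without replicate 2 the adjusted p was 0.0644 for Cd52 and 0.0938 for Laptm5, without replicate 3 it was 0.0873 for Cd52, and without replicate 1 it was 0.0658 for Laptm5. The receptor gene Csf1r had overlapping groups, at 25.1, 53.3 and 38.2 CPM in the A1G tumours, 35.9, 25.8 and 12.6 in the Ptch1 tumours and 34.4, 27.4 and 29.8 in cerebellum, and did not pass the test (log2 change 0.03, SE 0.34, adjusted p = 0.95). Csf1r overlaps Hmgxb3 on the opposite strand. The leukocyte phosphatase gene Ptprc (1.33, SE 0.77, adjusted p = 0.183), the tetraspanin gene Cd53 (1.94, SE 0.74, adjusted p = 0.0524) and Ly86 (1.84, SE 0.70, adjusted p = 0.0507) did not pass. Without A1G replicate 2 both Cd53 (adjusted p = 0.0303) and Ly86 (0.0145) did, and so did Cd53 without cerebellum replicate 3 (0.0377) and Ly86 without Ptch1 replicate 3 (0.0317). Sfpi1, the listed row of PU.1 and not counted as a member, was at 3.32, 6.24 and 1.64 CPM in the A1G tumours, 7.78, 3.37 and 3.45 in the Ptch1 tumours and 1.31, 0.608 and 1.60 in cerebellum, a log2 rise of 1.81 (adjusted p = 0.0418).

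The ligands of Csf1r were not higher in tumours. Csf1 was at 5.53, 14.0 and 17.7 CPM in the A1G tumours, 7.56, 9.44 and 2.68 in the Ptch1 tumours and 16.8, 20.4 and 26.8 in cerebellum. It was lower with a log2 change of -1.22 (SE 0.42, adjusted p = 0.0355), 1 A1G tumour overlapped with cerebellum, and the call was lost without any of 5 single libraries, with adjusted p of 0.133 without cerebellum replicate 3, 0.0727 without cerebellum replicate 2, 0.0540 when A1G replicate 1 was left out, 0.0524 for Ptch1 replicate 1 and 0.0502 for Ptch1 replicate 3. Il34, the ligand that neurons make, was at 0.411 to 2.50 CPM in the A1G tumours, 1.15 to 1.60 in the Ptch1 tumours and 0.788 to 8.59 in cerebellum, and its log2 change was -1.69 (SE 0.72, adjusted p = 0.0753). Without cerebellum replicate 1, its lowest cerebellum library, Il34 passed as lower (adjusted p = 0.0246).

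Of 12 other tested signals to microglia and their receptors, 2 were higher and 5 lower, with a median log2 change of 0.08. Over all tested genes 20.7% were higher and 21.5% lower. Cx3cl1, the neuronal fractalkine that binds Cx3cr1, was at 7.0, 2.81 and 7.40 CPM in the A1G tumours, 2.06, 2.36 and 3.45 in the Ptch1 tumours and 42.3, 52.6 and 68.3 in cerebellum, lower by log2 -3.83 (SE 0.34, adjusted p = 3.79e-06). Gas6, a bridging molecule for dead cells, was lower by log2 -2.87 (SE 0.28, adjusted p = 8.96e-06). Sirpa, the receptor for the restraining signal Cd47, was lower by log2 -2.03 (SE 0.25, adjusted p = 4.66e-05), and Cd47 and Cd200 were lower too (log2 -1.29, adjusted p = 0.00416 and log2 -0.94, adjusted p = 0.0449). Tgfb2, a TGF-beta ligand, was higher, at 103, 264 and 55.5 CPM in the A1G tumours, 78.1, 80.8 and 64.0 in the Ptch1 tumours and 15.2, 11.9 and 14.4 in cerebellum (log2 2.89, SE 0.45, adjusted p = 0.00027). The phosphatidylserine-binding protein gene Pros1 was the other that rose (log2 1.61, adjusted p = 0.0113). Mature neuron markers, which move with Cx3cl1, were lower in tumours for 10 of 10 genes, and their part in the result was not tested.

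All 3 genes of C1q, the recognition protein that starts the classical complement pathway and tags material for engulfment, were higher in tumours. C1qa was at 62.7, 50.2 and 83.1 CPM in the A1G tumours, 67.3, 59.8 and 45.2 in the Ptch1 tumours and 18.6, 14.3 and 14.0 in cerebellum. C1qb was at 77.4, 67.4 and 123 CPM in the A1G tumours, 80.4, 47.0 and 33.3 in the Ptch1 tumours and 11.6, 14.6 and 16.8 in cerebellum. C1qc was at 51.2, 55.2 and 71.6 CPM in the A1G tumours, 63.0, 54.0 and 40.2 in the Ptch1 tumours and 17.6, 8.51 and 14.0 in cerebellum. No tumour overlapped with cerebellum in any of the 3 genes. The log2 rises were 1.97 (SE 0.28, adjusted p = 0.00013) for C1qa, 2.27 (SE 0.35, adjusted p = 0.000253) for C1qb and 2.05 (SE 0.31, adjusted p = 0.0002) for C1qc. In the GENCODE annotation of mm10 the 3 genes neighbour each other on chromosome 4, minus strand, C1qb at 136880129 to 136886187, C1qc at 136889804 to 136893065 and C1qa at 136895917 to 136898803. Per length, in the authors' FPKM, the most and least abundant of the 3 stood within 1.23-fold to 1.70-fold of each other in every library. Of 8 tested complement genes beyond C1q, 5 were higher (C1s, C1ra, C4b, C3ar1 and Serping1) and 1, Cd59a, was lower. Cd59a blocks the membrane attack complex.

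Of the 6 receptors and adaptors, Trem2, Tyrobp and Fcer1g were higher in tumours. Trem2, a lipid-sensing receptor, was at 9.58, 17.5 and 11.1 CPM in the A1G tumours, 7.56, 12.4 and 17.2 in the Ptch1 tumours and 2.10, 3.04 and 3.79 in cerebellum, with a log2 rise of 2.05 (SE 0.45, adjusted p = 0.00297). Tyrobp, the signalling adaptor that Trem2 needs, was at 13.6, 12.5 and 13.6 CPM in the A1G tumours, 11.9, 19.0 and 5.36 in the Ptch1 tumours and 3.94, 2.43 and 4.19 in cerebellum, with a log2 rise of 1.84 (SE 0.46, adjusted p = 0.00679). Every tumour was above every cerebellum in both genes. Fcer1g, the shared chain of Fc receptors, rose by 1.72 (SE 0.47, adjusted p = 0.0106), but not past the threshold without cerebellum replicate 3 (adjusted p = 0.0537). The antibody receptor genes Fcgr3 (1.27, SE 0.50, adjusted p = 0.0574) and Fcgr1 (0.46, SE 0.58, adjusted p = 0.551) and the endotoxin co-receptor gene Cd14 (0.91, SE 0.91, adjusted p = 0.452) did not pass. Every tumour was above every cerebellum in Fcgr3, with 9.58 CPM in the lowest tumour and 9.45 CPM in the highest cerebellum, and Fcgr3 passed without Ptch1 replicate 3 (adjusted p = 0.0432) or cerebellum replicate 1 (0.0482). The related gene Fcgr4 was at 0 to 2.98 CPM. Whether Fcgr3 shares reads with this or other related genes was not tested.

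Of the 6 phagocytic genes, 5 were higher in tumours. Lyz2, the lysozyme of macrophages, was at 94.4, 90.1 and 147 CPM in the A1G tumours, 350.3, 280.4 and 103 in the Ptch1 tumours and 15.5, 5.17 and 4.39 in cerebellum, a log2 rise of 4.30 (SE 0.54, adjusted p = 5.7e-05). Its near-identical neighbour Lyz1 was at 0.369 to 7.49 CPM in tumours and 0 to 0.399 CPM in cerebellum, and reads may be split between them. Cybb, the catalytic subunit of the phagocyte oxidase, was at 15.5, 16.8 and 25.1 CPM in the A1G tumours, 30.7, 27.9 and 5.36 in the Ptch1 tumours and 2.36, 1.22 and 0.399 in cerebellum, a log2 rise of 3.95 (SE 0.69, adjusted p = 0.000594). Every tumour was above every cerebellum for both genes, and cerebellum replicate 1 was the highest of its group. Without that library the log2 rise was 5.09 for Lyz2 and 4.68 for Cybb.

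Cd68, a lysosomal membrane protein of macrophages, was at 8.48, 18.4 and 18.1 CPM in the A1G tumours, 14.0, 8.20 and 13 in the Ptch1 tumours and 2.36, 1.22 and 2.40 in cerebellum, a log2 rise of 2.69 (SE 0.48, adjusted p = 0.000663). The lysosomal proteases differed among themselves. Ctsd, an aspartic protease that many cell types express, rose by 1.39 (SE 0.32, adjusted p = 0.00383). Ctss, a cysteine protease that in brain is largely microglial, rose by 1.59 (SE 0.44, adjusted p = 0.0107), with 5 of 6 tumours above every cerebellum and no call without cerebellum replicate 2 or 3 (adjusted p = 0.0532 and 0.0559). Ctsb, a cysteine protease of most cells, was at 267, 308 and 314 CPM in the A1G tumours, 289, 228 and 151 in the Ptch1 tumours and 372, 355 and 331 in cerebellum. Every tumour was below every cerebellum in Ctsb, and its log2 change of -0.46 (SE 0.23, adjusted p = 0.127) did not pass the test. Ctsb overlaps Fdft1 on the opposite strand. Of 20 tested general lysosome genes, 4 rose (Ctsz, Grn, Npc2 and Gusb) and 8 fell, against 20.7% higher and 21.5% lower over all tested genes. The count that rose was thus near the share of all genes. The median log2 change was -0.37. Psap, the precursor of lysosomal activator proteins, was lower by log2 -1.79 (SE 0.20, adjusted p = 2.66e-05), and Tfeb itself by log2 -1.92 (SE 0.38, adjusted p = 0.00144).

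**Figure D2:**
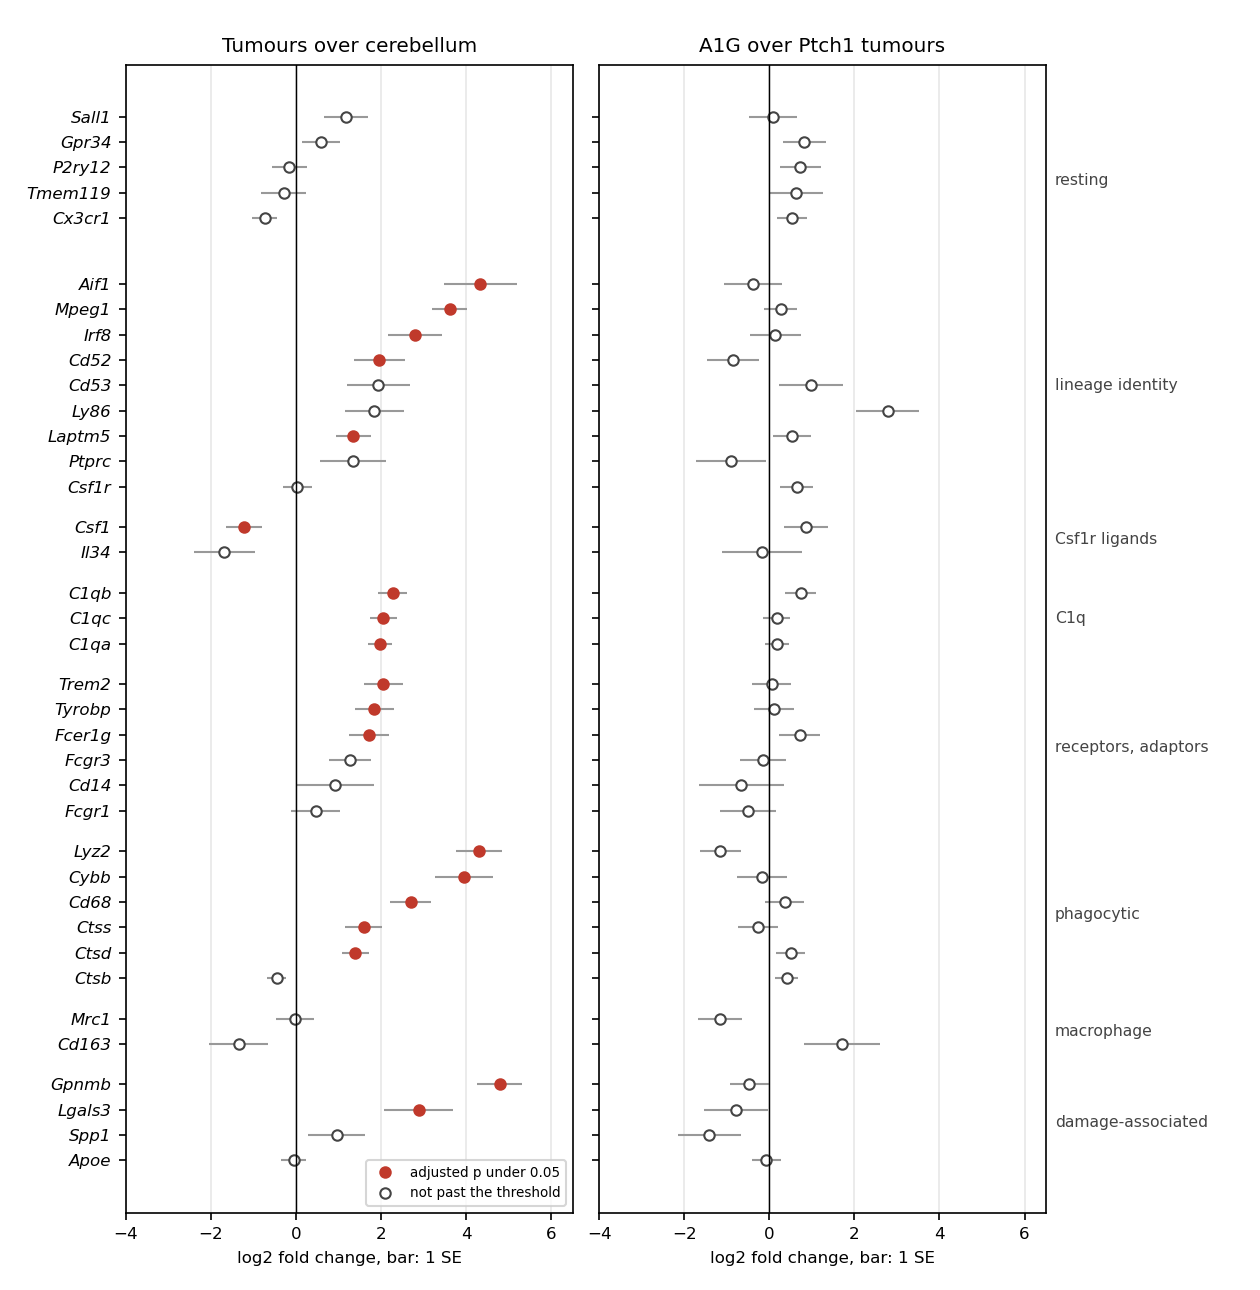
Log2 fold change of each tested member, with bars of 1 SE, in tumours over cerebellum (left) and A1G over Ptch1 tumours (right). Filled points have an adjusted p under 0.05: 18 higher and 1 lower on the left, and none on the right.

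Of the 4 damage-associated genes, Gpnmb and Lgals3 were higher in tumours. Gpnmb, a glycoprotein of lipid-loaded phagocytes that other cells can express, was at 85.5, 26.2 and 141 CPM in the A1G tumours, 125, 106 and 118 in the Ptch1 tumours and 3.41, 2.43 and 4.59 in cerebellum. Its log2 rise of 4.79 (SE 0.53, adjusted p = 2.18e-05) was the largest among the members, and the lowest tumour was A1G replicate 2. Lgals3, a sugar-binding lectin, was at 7.0, 2.18 and 9.87 CPM in the A1G tumours, 12.8, 5.84 and 14.2 in the Ptch1 tumours and 0, 2.13 and 1.2 in cerebellum, a log2 rise of 2.89 (SE 0.81, adjusted p = 0.0122) that was 3.58 without cerebellum replicate 2. Spp1, the secreted protein osteopontin, ranged from 8.11 to 65.8 CPM in the A1G tumours, 23.3 to 206 in the Ptch1 tumours and 23.4 to 40.7 in cerebellum (log2 change 0.96, SE 0.66, adjusted p = 0.270). Apoe, a lipid carrier that astrocytes and microglia make, was at 962, 1278 and 1242 CPM in the A1G tumours, 1664, 1372 and 627 in the Ptch1 tumours and 1389, 1149 and 1188 in cerebellum (log2 change -0.06, SE 0.29, adjusted p = 0.885). Apoe ranked 1st among the members per length, by FPKM, in all 9 libraries. Astrocyte and Bergmann glia markers were lower in tumours for 8 of 10 genes, and their part in the Apoe level was not tested.

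Of 18 other tested genes of activated phagocytes, 10 were higher in tumours and 1, the engulfment receptor gene Mertk, was lower, with a median log2 change of 2.25. Clec7a, a receptor of damage-associated microglia, was at 13.6, 12.5 and 14.0 CPM in the A1G tumours, 30.5, 15.7 and 10.3 in the Ptch1 tumours and 0.263, 0 and 0.998 in cerebellum, a log2 rise of 4.98 (SE 0.69, adjusted p = 0.000118). Msr1, a scavenger receptor, was higher (adjusted p = 0.00267) with 108 fragments in the 6 tumours and 1 in the 3 cerebella, a depth-scaled ratio of 54 with an exact 95% counting interval of 9.48 to 2151. Lpl, a lipase, rose by 4.09 (SE 0.59, adjusted p = 0.000161) and Cd9, a tetraspanin of many cell types, by 3.18 (SE 0.34, adjusted p = 1.72e-05).

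The border macrophage members were not higher in tumours. Mrc1 was at 9.22, 9.67 and 9.46 CPM in the A1G tumours, 36.2, 19.5 and 7.28 in the Ptch1 tumours and 15.8, 18.9 and 8.79 in cerebellum, with a log2 change of -0.02 (SE 0.44, adjusted p = 0.971). Cd163 was at 5.53, 0.936 and 3.70 CPM in the A1G tumours, 2.06, 0.786 and 0 in the Ptch1 tumours and 6.30, 4.56 and 3.39 in cerebellum, with a log2 change of -1.35 (SE 0.70, adjusted p = 0.142). Every Ptch1 tumour was below every cerebellum in Cd163 (adjusted p = 0.0634), as for 3874 of the 14337 tested genes. Of 11 other tested monocyte and border macrophage genes, 4 were higher (Ms4a7, Ms4a6c, Tgfbi and Itga4) and 3 lower (Pf4, Lyve1 and Emilin2). The shares over all tested genes were 20.7% higher and 21.5% lower. Pf4, a chemokine of platelets and border macrophages, was listed at 0 fragments in all 6 tumours and at 2, 6 and 6 fragments in cerebellum. Pf4 thus passed the filter through cerebellum alone. Lyve1, a hyaluronan receptor of vessel-associated macrophages, was lower by log2 -2.56 (SE 0.91, adjusted p = 0.0387), with 0 to 2.68 CPM in tumours and 2.74 to 4.79 CPM in cerebellum. Ms4a6c rose by 2.41 (SE 0.70, adjusted p = 0.0146) and Ms4a7, a membrane protein of monocyte-derived and border macrophages, by 2.22 (SE 0.80, adjusted p = 0.0406).

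Set side by side in each library, neither the sum of the resting genes nor that of all 12 phagocytic, macrophage and damage-associated members separated tumours from cerebellum. The 6 resting genes summed to 84.8, 92.9 and 118 CPM in the A1G tumours, 84.0, 59.4 and 75.1 in the Ptch1 tumours and 69.1, 83 and 115 in cerebellum. The 12 members summed to 1997, 2247 and 2657 CPM in the A1G tumours, 3159, 2668 and 1353 in the Ptch1 tumours and 2095, 1739.6 and 1694 in cerebellum, and Apoe alone made up 46.3 to 70.1% of that sum. The resting share of these sums was 4.10 ± 0.14% in A1G tumours, 3.34 ± 1.67% in Ptch1 tumours and 4.71 ± 1.60% in cerebellum (SD, n = 3 each), and the groups overlapped. A narrower sum leaves out Apoe, Ctsd, Ctsb, Lgals3 and Spp1, which other cell types also express; Apoe, Ctsb and Spp1 are among the 5 of the 12 members that did not pass as higher. The 7 genes that stay summed to 307, 205 and 412 CPM in the A1G tumours, 673, 536 and 279 in the Ptch1 tumours and 80.9, 56.9 and 38.3 in cerebellum, with no overlap between tumours and cerebellum. With these 7 genes the resting share was 21.6, 31.2 and 22.2% in A1G tumours, 11.1, 9.99 and 21.2% in Ptch1 tumours and 46.1, 59.3 and 75.1% in cerebellum. Leaving out Gpnmb and Sall1 too, which cells other than microglia also use, gave shares of 18.5 to 24.6% in A1G tumours, 7.38 to 20.9% in Ptch1 tumours and 45.3 to 73.5% in cerebellum. The gap in the share thus rests on which members enter the sum. Whether the resting and phagocyte genes differ in their change was not tested, since the members were chosen with results known.

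**Figure D3:**
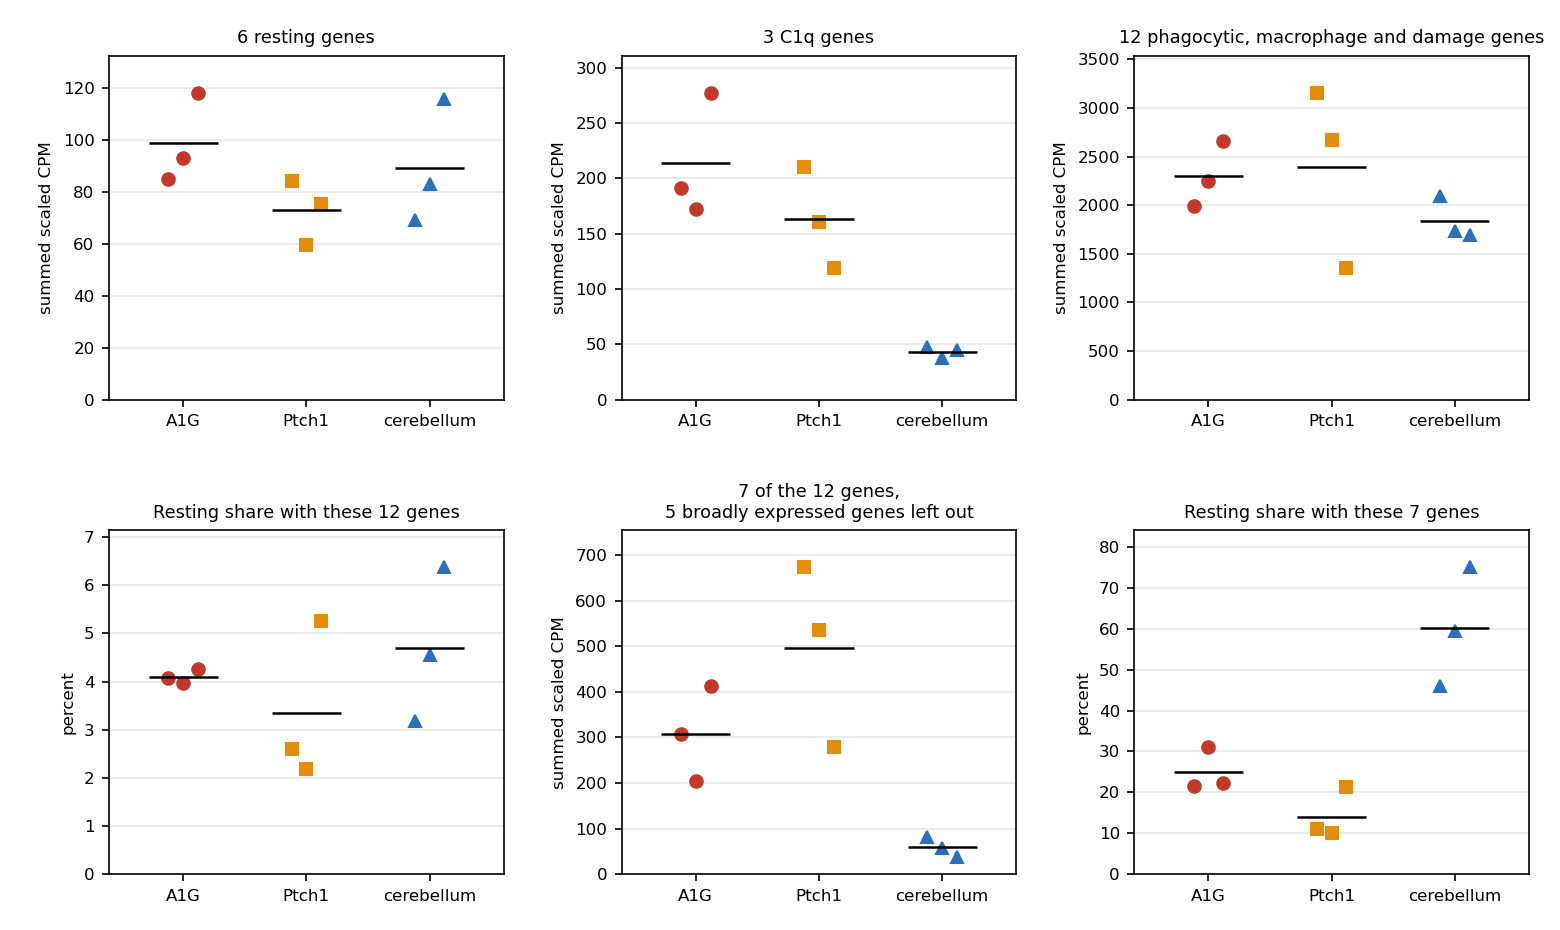
Summed scaled CPM of the 6 resting genes, the 3 C1q genes, the 12 phagocytic, macrophage and damage-associated genes and 7 of these 12, and the resting share in percent with the 12 and with the 7 genes, for each library, with a line at each group's mean. Resting sums, 12-gene sums and the share with 12 genes overlap between tumours and cerebellum; C1q and 7-gene sums are higher in all 6 tumours, and the share with 7 genes lies at 9.99 to 31.2% in tumours against 46.1 to 75.1% in cerebellum.

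Lyz2 and Cx3cr1 are set against each other as a description only; the pair was chosen after its values were seen and adds nothing to the changes of each gene given above. For each Cx3cr1 fragment there were 2.37, 3.80 and 2.79 Lyz2 fragments in A1G tumours and 13.7, 12.2 and 3.25 in Ptch1 tumours, against 0.328, 0.123 and 0.0616 in cerebellum. Among the members ranked per length by FPKM within a library, Lyz2 stood 2nd to 3rd in tumours and 8th to 15th in cerebellum. Cx3cr1 stood 16th to 23rd in tumours and 5th to 10th in cerebellum. A rank also moves with the levels of the other members. Cx3cr1 ranked 16th in A1G replicate 3 at 52.6 CPM, but 8th in cerebellum replicate 2 at 42.0 CPM.

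Between A1G and Ptch1 tumours 0 of the 37 members passed the test, and over all tested genes 0.0139% were higher and 0% lower in A1G tumours. At an unadjusted p under 0.05 there were 3 members, Ly86, Lyz2 and Mrc1, against 10.6% of all tested genes, and DESeq2 called 1 member, Ly86. Groups did not overlap for 2 members, against 15.5% of all tested genes. Ly86, a partner of an innate immune receptor on B cells and macrophages, was at 38, 5.30 and 15.2 CPM in A1G tumours, against 2.06, 4.94 and 0.766 CPM in Ptch1 tumours, and 2.10, 1.82 and 2.20 CPM in cerebellum. Every A1G tumour was above every Ptch1 tumour and every cerebellum. Of the 14337 tested genes, 3230 were above every cerebellum in all A1G tumours. The log2 difference of A1G over Ptch1 tumours was 2.78 (SE 0.74, adjusted p = 0.282 by edgeR and 0.0242 by DESeq2; two-sided exact permutation p = 0.1, which is the lowest possible with 3 against 3). Cd52 was the other member without overlap, lower in A1G tumours by log2 -0.86 (SE 0.60, adjusted p = 0.641). It was at 4.05, 2.50 and 2.47 CPM in A1G tumours, from 11, 8 and 6 fragments, against 8.01, 4.16 and 4.21 CPM in Ptch1 tumours. The highest A1G and lowest Ptch1 levels thus nearly met.

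The mean of Lyz2 was 110.4 ± 31.6 CPM over A1G tumours, against 245 ± 127 CPM over Ptch1 tumours (SD, n = 3 each), and the log2 difference was -1.15 (SE 0.49, adjusted p = 0.437). That of Mrc1 was 9.45 ± 0.23 CPM over A1G tumours, against 21.0 ± 14.5 CPM over Ptch1 tumours, and the log2 difference was -1.16 (SE 0.52, adjusted p = 0.460). The 5 tested resting genes all had log2 differences above 0, from 0.09 to 0.82 in A1G over Ptch1 tumours, and none passed (smallest adjusted p = 0.587). Differences above 0 were seen for 22 of the 37 tested members and 7384 of the 14337 tested genes. The C1q genes differed by 0.17 to 0.73 (smallest adjusted p = 0.491). A p that misses the threshold does not show that the tumour kinds are alike.

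Markers of other cell types were measured in the same libraries. Neutrophil markers had 3 of 10 genes tested and 0 called in any comparison, and summed to 1.56 to 6.58 CPM in the A1G tumours, 3.15 to 17.4 in the Ptch1 tumours and 4.39 to 8.82 in cerebellum, with Elane at 0 in every library. T and NK cell markers had 2 of 9 listed genes tested and 0 called in all tumours against cerebellum, with sums of 5.35 to 5.90 CPM in the A1G tumours, 4.21 to 10.8 in the Ptch1 tumours and 1.84 to 7.39 in cerebellum, and Nkg7 and Gzma at 0 in every library. In Ptch1 tumours alone Cd4, which T cells and some macrophages express, was higher, at 8.01, 3.15 and 2.68 CPM in the Ptch1 tumours against 0.525, 0.912 and 1.80 in cerebellum (log2 2.03, SE 0.75, adjusted p = 0.0474). None of the 6 listed B cell markers passed the filter. Globin and other erythrocyte genes were lower in tumours for 4 of 6 tested genes, with sums of 16.4 to 36.1 CPM in the A1G tumours, 4.58 to 20.8 in the Ptch1 tumours and 351 to 420.3 in cerebellum. Every tumour was below every cerebellum in that sum.

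Markers of astrocytes, oligodendrocytes and mature neurons took up much less of the tumour RNA. Astrocyte and Bergmann glia markers summed to 1483 to 2610 CPM in the A1G tumours, 1500.3 to 3152 in the Ptch1 tumours and 10495 to 13607 in cerebellum. Oligodendrocyte markers were lower in tumours for 9 of 9 genes and mature neuron markers for 10 of 10, while markers of dividing tumour cells were higher for 9 of 9. Endothelial markers were lower for 3 of 10 and 7 did not pass, against 21.5% of all tested genes lower. Their sums were 66.4 to 181 CPM in tumours and 219 to 259 CPM in cerebellum. CPM are shares of each library's RNA, and the part of this shift in tissue makeup in the members' changes was not tested.

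**Figure D4:**
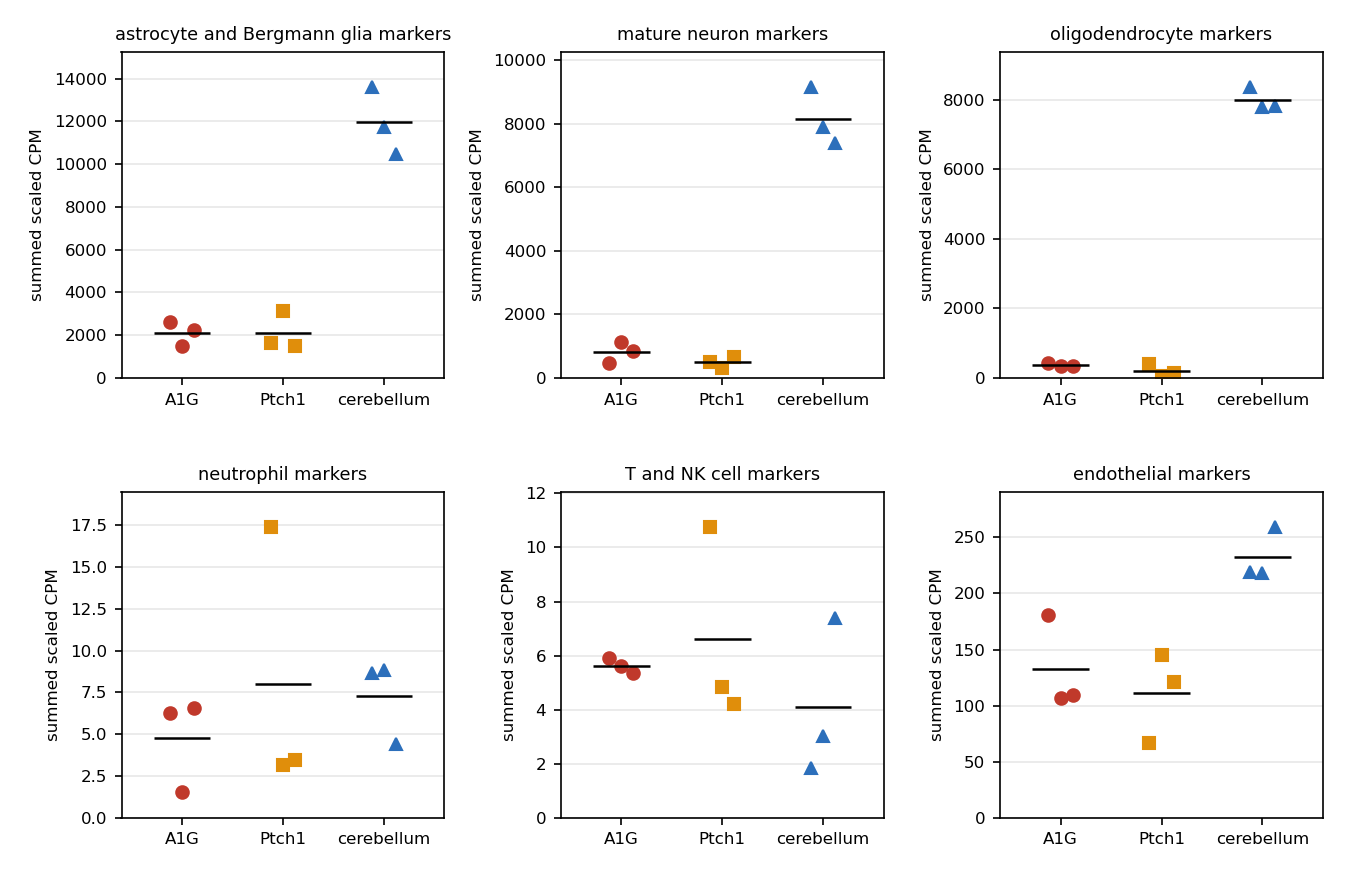
Summed scaled CPM of the markers of 6 other cell types in each library, with a line at each group's mean. Astrocyte, neuron and oligodendrocyte sums are lower in all 6 tumours than in cerebellum, and neutrophil and T and NK cell sums stay at or under 17.4 CPM in every library.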

How the data were processed

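The members, their roles and all companion and marker lists were chosen with earlier results of these data known. Per the labels' protocols, an Ion Total RNA-Seq Kit V2 was used and an Ion Proton chip carried 3 libraries. The sources used here do not name the libraries of each chip, so chip and group cannot be told apart. The submitters' processing notes name mm10 and Bowtie 0.12.2 without a role. The sources used here name neither the quantifier nor the annotation. Per the file headers, the deposited expected counts are raw fragments per gene, and 1147 to 1440 values per library were not whole (tolerance 1e-06). The deposited signal columns are these fragments times 1 scaling factor per library, set by the authors, and were not used. The deposited FPKM were scaled by the authors separately for tumours and cerebellum, so FPKM served for the filter, for comparisons within a library and for limma as an alternative only, whose comparisons with cerebellum carry that separate scaling.

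Fragments were rounded and fitted with edgeR 4.0.16 (R 4.3.3) as 1 mean per group over all 9 libraries, with TMM scaling. The filter asked for FPKM of 1 or more in 3 or more libraries. Genes could pass that filter through tumours alone or cerebellum alone. Exact permutation tests of single members used log2(CPM + 1). Alternatives were median-of-ratios scaling, library totals only, no filter, a filter of 6 libraries, DESeq2 1.42.0, limma 3.58.1 on log2(FPKM + 1) and log2(FPKM + 0.1), only the groups compared, a replicate block, and each library left out in turn. All members are accounted for; from each other list the text values up to 4 genes with the largest changes past the threshold, and other called genes are named only; a few genes are not reported here. Depth was 2350941 to 9290237 fragments. In the shallowest library 3 fragments are 1.23 scaled CPM, and lower levels there rest on under 3 fragments.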

Additional observations from a re-analysis of the deposited data

How the results depend on the processing

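In tumours against cerebellum, 14 of the 19 called members kept their call in all 17 alternatives and 5 lost it in some (Laptm5, Cd52, Fcer1g, Ctss and Csf1), no change reversed, and 6 of the 18 other tested members passed in some (Cx3cr1, Sall1, Ly86, Cd53, Il34 and Fcgr3). Cx3cr1 passed as lower with median-of-ratios scaling (adjusted p = 0.0470), the filter of 6 libraries (0.0390), DESeq2 (0.0396), the replicate block (0.0307) and without A1G replicate 3 (0.0327); over all 17 alternatives its adjusted p ran from 0.0307 to 0.258. Members lower in tumours numbered 2 with median-of-ratios scaling, the filter of 6 libraries, DESeq2 and the replicate block, and 0 with limma on log2(FPKM + 0.1). In Ptch1 tumours against cerebellum 4 were lower by DESeq2 and 1 by limma on log2(FPKM + 1), against 2. In A1G against Ptch1 tumours DESeq2 called 1 member higher. With each library left out in turn, 15 to 20 members were higher and 0 to 2 lower in tumours, 15 to 19 were higher in A1G tumours, and 13 to 18 were higher and 0 to 3 lower in Ptch1 tumours. Library totals alone moved the median of all genes to 0.13 in A1G tumours against cerebellum and against Ptch1 tumours, from 0.03 and 0.02. The cause of these shifts was not tested. The resting share was 1.81% in A1G tumours, 1.29% in Ptch1 tumours and 2.04% in cerebellum by FPKM. Without the broadly expressed members it was 25.0% in A1G tumours, 14.1% in Ptch1 tumours and 60.2% in cerebellum, and without Gpnmb and Sall1 too, left out after seeing the data, 22.4% in A1G tumours, 12.4% in Ptch1 tumours and 58.2% in cerebellum. The mean log2 level of resting minus phagocyte genes, a measure chosen after seeing the data, was -2.19 ± 0.24 in A1G tumours, -2.87 ± 0.50 in Ptch1 tumours and -1.03 ± 0.56 in cerebellum (SD, n = 3 each). Deviations of same-numbered libraries correlated at -0.07 to 0.21, and those of differently numbered libraries at -0.25 to 0.24. Deviations from a mean of 3 libraries depend on each other, so these values cannot show whether libraries were paired. With the replicate block 19 members were higher and 2 lower in tumours, 18 higher in A1G tumours, 17 higher and 2 lower in Ptch1 tumours, and 0 differed between the tumour kinds. A fit of only the groups compared does not apply to the pooled tumours. Members with few fragments, such as Cd14, Il34 and Cd163, have wide errors, and depth limits what could be called for them.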
